A study of Drosophila melanogaster with 60 samples.

Results

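The 213 genes described here had higher 3′ RNA-seq values in fly heads labelled OE than in their controls, and lower values in heads labelled RNAi than in theirs. They were chosen by their measured values among the 6994 genes listed in both deposited tables. A member's mean log2(value + 1) over all libraries was at least 0.5 higher in OE than in conOE, and its mean in RNAi lay below conRNAi by 0.3 or more (a difference of at most -0.3). Of the 244 genes meeting both thresholds, 31 were left out because their names start with RpL, RpS, mRp, Cyp, Obp, Idgf, Spn, Ugt, Gst, PGRP or Bom. These differences chose the members, so they are given as a description and no p-value is given for them.

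All 4 genotypes carried the driver Tim-gal4, which is active in cells expressing the clock gene timeless, and all RNA came from whole heads of Drosophila melanogaster. The conOE flies carried the driver alone, and the OE flies added UAS-cbtFLAG, a tagged transgene of cabut (cbt). The conRNAi flies carried the driver with UAS-Dcr2, and the RNAi flies the driver with a UAS construct directed against cbt; their label lists no UAS-Dcr2. Sampling fell at Zeitgeber time (ZT, in hours from lights on) 3, 7, 11, 15, 19 and 23, in 2 replicate courses for conOE and OE (12 libraries each) and in 3 courses for conRNAi and RNAi (18 libraries each). The labels give neither age nor sex, nor do they say whether courses came from separate flies, so the p-values below measure the spread between these libraries, which may be technical. The cbt transcript itself went against the OE label: its normalised count was 232.6 to 354.8 (median 282.9) in conOE and 54.7 to 140.3 (median 98.2) in OE, a log2 difference of -1.61 (SE 0.12, limma adjusted p = 3.41e-11). In the other experiment cbt was 317.7 ± 36.7 (SD, n = 18) in conRNAi and 308.2 ± 55.5 (SD, n = 18) in RNAi, a difference of -0.06 (SE 0.068, limma adjusted p = 0.618). The groups are therefore named by their labels only. Whether reads of the transgene are among the cbt counts, and whether the labels were exchanged, was not tested, so each direction below refers to the labels and not to a level of cbt.

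Cabut is a zinc finger transcription factor that responds to sugar sensing and to the circadian clock. The fat body, the counterpart of liver and adipose tissue, also lies in the head capsule. It secretes antimicrobial peptides downstream of the Toll and Imd pathways, stores nutrients as serum proteins and lipid, and follows feeding and the clock.

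Read totals recovered from the values ran from 349019 to 13922764 per library, with medians of 3365606 (conOE), 2308046 (OE), 4750668 (conRNAi) and 2720848 (RNAi), and 7 of the 60 libraries held under 1000000 reads. Each listed value stood for at least 1 read, so a gene with no reads in 1 library is not among the 6994. Head markers were present: all 14 photoreceptor genes looked for were measured, 8 of them lower and 1 higher in OE and 3 lower in RNAi (limma adjusted p under 0.05), and their summed value was 83212 to 101394 in conOE and 70969 to 89636 in OE, against 80544 to 107279 in conRNAi and 72542 to 99995 in RNAi. Among 12 hemocyte markers, 6 were higher in OE and none lower, with summed values of 1839.6 to 2386 in conOE and 2299.5 to 3136 in OE; in the RNAi experiment 2 were higher and 1 lower, with sums of 1883 to 2864 and 1882 to 2584. Of 10 pan-neuronal markers 4 were lower in OE, and 6 were higher and 1 lower in RNAi. The part of these markers' cells in the differences below was not tested. In 3 libraries some members stood far above the other libraries of the same genotype. In course 1 of conOE at ZT7 these included immune and haemolymph members. In course 1 of conRNAi at ZT7 and course 1 of RNAi at ZT3 they included immune members such as Drs.

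Over the members the difference in the overexpression experiment ran from 0.50 to 6.28 (log2, median 0.92), and in the RNAi experiment from -2.60 to -0.30 (median -0.49). The same medians over all 6994 genes were 0.01 and -0.01. The overexpression threshold was met by 866 genes (12.4%) and the RNAi threshold by 776 genes (11.1%). With the same sizes and the same name families left out, 81 genes were lower in OE and higher in RNAi, 77 were higher in both labelled groups and 84 were lower in both. The tables were normalised separately and share no control libraries. In whole heads, fewer cells of a type and less RNA per cell cannot be told apart.

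**Figure D1:**
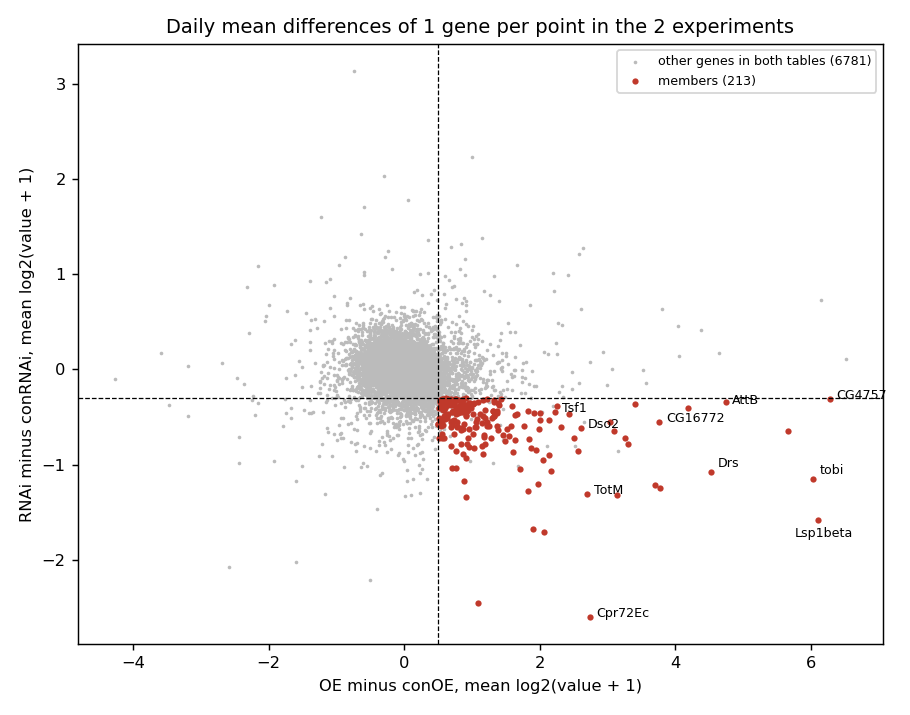
Each point is 1 gene listed in both tables, with the difference OE minus conOE on the horizontal axis and RNAi minus conRNAi on the vertical axis, both as differences of mean log2(value + 1). Dashed lines mark the thresholds of 0.5 and -0.3; the 213 members fill the lower right corner and reach 6.28 on the horizontal and -2.60 on the vertical axis, and genes of the left-out name families in that corner are grey.

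The members nearest the thresholds differed little from the genes that missed them. Just inside the overexpression threshold were CG14400 (0.50), CG16985 (0.50) and the gap junction gene Inx3 (0.51), and just outside it BaraA2 (0.50, unrounded value under the threshold), CG9631 (0.49) and Naglu (0.49). At the RNAi threshold the innermost members were the glypican gene dlp, the serpin gene nec and the mannosidase gene beta-Man (-0.30, -0.30 and -0.31), while Rrp40, l(3)neo38 and CG2493 lay outside it at -0.30 each.

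Most members kept their direction across times of day, which the choice by means over these times largely fixes. In the overexpression experiment 206 of 213 members had a higher OE mean at all 6 times and 209 in both courses. Over all 6994 genes this held for 1544 and 2661. In the RNAi experiment 156 members had a lower RNAi mean at all 6 times, beside 993 of all genes. In 197 members the direction held in every course of both experiments, and in 151 at every time of both. For both experiments together the direction was not counted over all genes. Libraries of OE and conOE did not overlap for 93 members, against 4.25% of all genes, and those of RNAi and conRNAi did not overlap for 9, against 0.415% of all genes. These counts come from the contrast that chose the members and are not read as support for it. A difference of at least 2-fold was seen for 94 members in the overexpression experiment, for 19 in the RNAi experiment and for 15 in both. Over all 6994 genes, 373 and 68 differed by as much in either direction in the 2 experiments, and the members' counts again follow from their choice.

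Averaged over the 213 members, log2(value + 1) lay between 7.34 and 7.80 in the 12 conOE libraries (median 7.46) and between 8.60 and 9.05 in the 12 libraries labelled OE (median 8.74). In the RNAi experiment it lay between 7.45 and 7.85 in the 18 conRNAi libraries (median 7.63) and between 6.85 and 7.20 in the 18 libraries labelled RNAi (median 7.05). Neither pair of groups overlapped, which the choice of members fixes. The highest conOE library was course 1 at ZT7.

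**Figure D2:**
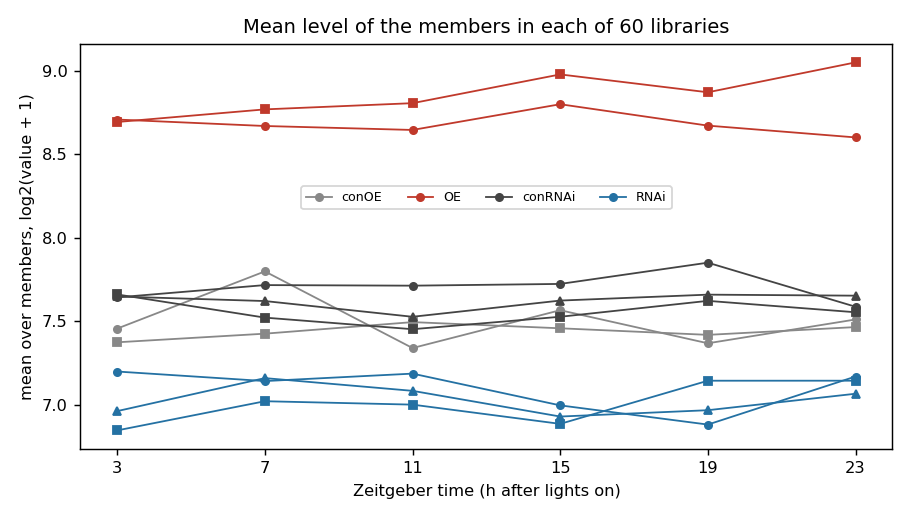
Mean log2(value + 1) over the 213 members (vertical axis) at each Zeitgeber time (horizontal axis, h after lights on) in each of 60 libraries; a line joins the libraries of 1 course, and circles, squares and triangles are courses 1, 2 and 3. OE lies at 8.60 to 9.05, both controls between 7.34 and 7.85, and RNAi at 6.85 to 7.20; the 2 tables were normalised separately.

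The 12 immune and stress peptides had a median difference of 2.92 in the overexpression experiment and -0.82 in the RNAi experiment. Drs, which encodes the antifungal peptide drosomycin, lay at 87.8 to 564 (median 195) in conOE and at 2676 to 7729 (median 4088) in OE. It lay at 95.1 to 5658 (median 189.9) in conRNAi and at 18.7 to 2769 (median 74.4) in RNAi. The OE libraries were all above the conOE libraries, whereas RNAi and conRNAi overlapped; the log2 differences were 4.53 (SE 0.25) and -1.08 (SE 0.51). The highest conRNAi and RNAi values came from the libraries of course 1 at ZT7 and at ZT3, and without those libraries the RNAi difference was -1.14.

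Mtk, the gene of the antifungal and antibacterial peptide metchnikowin, showed the same order, with 625 to 3793 (median 1386) in conOE and 5924 to 21801 (median 14671) in OE. Its RNAi libraries at 98.0 to 3652 (median 558) overlapped the conRNAi libraries at 427 to 3862 (median 1364), and the differences were 3.14 (SE 0.29) and -1.32 (SE 0.48), the latter -1.49 without the 2 high libraries of the RNAi experiment. For the attacin gene AttB the RNAi side was within the spread: 18.7 to 229 (median 39.1) in conRNAi and 4.39 to 202 (median 28.5) in RNAi, a difference of -0.35 (SE 0.43), or -0.44 without those 2 libraries, beside 4.74 (SE 0.3) in the overexpression experiment. The mean values of AttB, unlike the mean log values, were slightly higher in RNAi than in conRNAi, and a count model gave a difference of 0.02, so its place among the members depends on the log scale. The mean values of CG4757, a gene without a name, were likewise higher in RNAi, where it lay at 6.22 to 1247 (median 19.1) in RNAi with the highest value from course 1 at ZT3. Its log2 difference was -0.31 with that library and the high conRNAi library and -0.47 without them.

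Standard errors were smaller for the drosomycin-like genes, Dso2 and Bbd. Drsl4 was at 566 to 1777 (median 1373) in conOE, 7231 to 19732 (median 10581) in OE, 1057 to 2184 (median 1420.4) in conRNAi and 587 to 1468 (median 889) in RNAi. Its neighbour Drsl5 had differences of 2.57 (SE 0.11) and -0.86 (SE 0.12). Dso2, which encodes the antifungal peptide Daisho 2, was at 2858 to 5798 (median 4162) and 17408 to 38087 (median 24364) in conOE and OE, and at 3985 to 8280.3 (median 5504) and 2199 to 6286 (median 3771) in conRNAi and RNAi. Bbd, the gene of Bombardier, a protein needed for the activity of Bomanin peptides, had the largest RNAi difference of these 4 at -1.07 (SE 0.16), with 2144 to 12196 against 5244 to 16106. The OE libraries of all 4 lay above every conOE library, and the RNAi libraries of all 4 overlapped their controls.

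Turandot genes encode secreted stress proteins that follow infection and heat. TotA was at 325 to 2427 (median 1180.3) in conOE and 5474 to 15208 (median 11844) in OE, and at 191 to 601 (median 315) in conRNAi and 80.4 to 909 (median 171) in RNAi. TotC and TotM had overexpression differences of 3.78 (SE 0.38) and 2.71 (SE 0.45) and RNAi differences of -1.24 (SE 0.43) and -1.31 (SE 0.38). Only TotM had OE libraries (378 to 3695) that overlapped conOE (113 to 1667) among these 3 genes, and all 3 had RNAi libraries that overlapped conRNAi. The smallest overexpression differences of the peptide group belonged to the baramicin gene BaraA1 (0.54 and -0.32) and to IM33 (0.81 and -0.41).

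Of a list of antimicrobial peptide genes, 4 of the measured genes were members (AttB, Drs, Dso2 and Mtk). In the overexpression experiment the 8 measured genes outside the members were all higher in OE (limma adjusted p under 0.05; 41.3% of all 7648 genes were called, 22.7% higher and 18.6% lower), with a median difference of 4.51 against 0.01 over all genes. Among them, Def, the defensin gene, was 71.2 ± 37.4 in conOE and 1612 ± 247 in OE (SD, n = 12 each), a difference of 4.64 (SE 0.2, adjusted p = 1.42e-15). Dso1, the gene of Daisho 1, differed by 2.58 (SE 0.11, adjusted p = 1.42e-15). In the RNAi experiment none of the 7 measured genes outside the members passed limma's test in either direction (22.4% of 7444 genes were called, 13.1% lower and 9.23% higher), 1 had an unadjusted p under 0.05, and edgeR called 1, IM18. IM18 differed by 0.73 (SE 0.3, adjusted p = 0.0727), and Dso1 differed by -0.14 (SE 0.075, adjusted p = 0.192). IM18 passed without course 1 of conRNAi (adjusted p = 0.0174), without the 2 high libraries (0.0474), without ZT11 (0.0372) and without ZT19 (0.0448), and Dso1 without course 1 of RNAi (adjusted p = 0.0451). A list gene that met both thresholds is a member, so low RNAi values are missing from these 7 by construction. Without course 1 of conRNAi the RNAi test called 1067 genes in place of 1664.

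Upstream of these peptides, 14 members act in recognition of microbes or in the proteolytic cascades of Toll signalling and melanisation, or are circulating immune proteins; their median differences were 0.92 and -0.51. SPE encodes the protease that cleaves the Toll ligand Spätzle. It was at 678 to 1039 (median 740.4) in conOE and 1997 to 4874 (median 2584) in OE, without overlap, and at 596 to 1215 (median 834) in conRNAi and 279 to 667 (median 521) in RNAi, with overlap. Its differences were 1.85 (SE 0.14) and -0.73 (SE 0.089). GNBP3, a sensor of fungal glucans, was at 50.7 to 165 (median 127) in conOE and 161 to 431 (median 198) in OE, with overlap, and at 92.2 to 215 (median 141) and 41.2 to 135 (median 90.3) in conRNAi and RNAi. GNBP-like3, of the same protein family, had the largest overexpression difference of the 14 genes at 3.04 (SE 0.19), and -0.56 (SE 0.17) in the RNAi experiment.

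The serine protease genes grass, Sp7 and Ser7 had overexpression differences of 0.55, 0.96 and 0.85 and RNAi differences of -0.36, -0.35 and -0.79. Ser7 libraries labelled RNAi lay at 97.3 to 180.1 (median 131) and conRNAi libraries at 171 to 285 (median 239), so that their ranges overlapped between 171 and 180.1. The serpin gene nec, whose product restrains Toll activation, had differences of 0.92 and -0.30. Rel, the NF-kappaB factor of the Imd pathway, was at 159 to 435 (median 242) in conOE and 492 to 731 (median 606) in OE, without overlap, but at 121 to 252 (median 220.2) in conRNAi and 139.6 to 296 (median 167) in RNAi, with wide overlap. Tep2, a thioester protein, differed by 1.58 and -0.59. The growth-blocking peptide genes Gbp1, Gbp2 and Gbp3, which encode cytokines made in the fat body, differed by 0.76, 0.51 and 1.03 in the overexpression experiment and by -0.34, -0.52 and -0.83 in the RNAi experiment.

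A list of immune signalling genes held 8 members (GNBP3, GNBP-like3, Rel, SPE, nec, TotA, TotC and TotM). Outside the members 4 of 9 measured genes were higher in OE and none lower (limma adjusted p under 0.05; edgeR called 2 higher), among them spz, the gene of the Toll ligand, with 1.01 (SE 0.13, adjusted p = 3.77e-07). In the RNAi experiment 1 of 8 was lower and none higher: the Toll inhibitor gene cact, at -0.18 (SE 0.064, adjusted p = 0.035), a call that edgeR and several other settings did not make (adjusted p up to 0.841, with summed transcripts). The Toll receptor gene Tl differed by -0.05 (SE 0.13, adjusted p = 0.787) and -0.16 (SE 0.11, adjusted p = 0.338) and passed in neither experiment.

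Haemolymph proteins and fat body signals made up 8 members, with median differences of 1.07 and -0.66. Lsp1beta, which encodes a larval serum storage protein, had the largest sum of both differences of all members. It was at 160.3 to 6491 (median 290.3) in conOE and 17464 to 56806 (median 37448) in OE, and at 1105 to 6483 (median 1643) in conRNAi and 169 to 1515 (median 706) in RNAi. OE and conOE did not overlap, although the conOE library of course 1 at ZT7 held 6491 where the other 11 held at most 1253. The differences were 6.11 (SE 0.45), or 6.50 without that library, and -1.58 (SE 0.26).

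Tsf1, the iron carrier transferrin 1, was at 2592 to 6381 (median 3782) in conOE and 13143 to 28016 (median 17165) in OE, without overlap. It was at 4194 to 9284 (median 5919) in conRNAi and 2343 to 7517 (median 4419) in RNAi, with overlap, and its differences were 2.22 (SE 0.14) and -0.45 (SE 0.13). CG2233, an unnamed gene outside this role group but on the list of secreted fat body genes, had conOE values of 9003 to 16441 (median 10081), OE values of 17167 to 28491 (median 23234), conRNAi values of 7564 to 12417 (median 10004) and RNAi values of 4929 to 7695 (median 6692); its RNAi and conRNAi libraries overlapped only between 7564 and 7695. The satiety peptide gene fit differed by 0.96 (SE 0.29) and -0.82 (SE 0.29). Lst, the gene of limostatin, a peptide that limits insulin release, differed by 0.77 (SE 0.17) and -1.04 (SE 0.12). The juvenile hormone binding protein family gene Jhbp13 differed by 0.69 and -0.37. SPARC, a collagen-binding matrix protein, was at 1399 to 1899.6 (median 1562) in conOE and 2003 to 2736 (median 2377) in OE, and at 1695 to 2447 (median 1979) in conRNAi and 1125 to 1722 (median 1331) in RNAi.

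Other secreted fat body genes did not all share this pattern. Outside the members, 5 of 7 measured genes of that list were higher in OE and none lower (limma adjusted p under 0.05), whereas in the RNAi experiment 1 was higher and 2 were lower. The members on that list are Lsp1beta, Tsf1, fit and CG2233. Outside them, genes that met both thresholds are missing by construction, apart from Obp99b. That gene met both, was left out by its name and is counted among the 7. Lsp2, another serum storage protein gene, was higher in both labelled groups, by 2.64 (SE 0.32, adjusted p = 2.37e-07) and 1.28 (SE 0.22, adjusted p = 1.36e-05). The lipophorin gene apolpp differed by 0.30 (SE 0.11, adjusted p = 0.0337) in the overexpression experiment and by -0.51 (SE 0.06, adjusted p = 6.21e-09) in the RNAi experiment, below the overexpression threshold of the rule. The odorant binding protein gene Obp99b, left out by its name, differed by 2.53 (SE 0.14, adjusted p = 1.77e-13) and -0.80 (SE 0.2, adjusted p = 0.002). For the lipocalin gene GLaz the values were 1.08 (SE 0.11, adjusted p = 8.3e-09) and -0.02 (SE 0.068, adjusted p = 0.877). Of 9 fat body markers 7 were measured (Fbp1 and Lsp1alpha were not), 2 of them members. Of the 5 outside the members, 2 were higher and 1 lower in OE (limma adjusted p under 0.05), and edgeR called 1 higher and 1 lower. In RNAi 1 of these 5 was higher and 3 were lower. The summed value of all 7, members included, was 128890.4 to 351557 in conOE and 143492 to 423509 in OE. The same sum was 131105 to 317879 in conRNAi and 96314 to 375341 in RNAi. The yolk protein genes Yp1, Yp2 and Yp3 alone summed to 119666 to 329223 in conOE and 84989 to 333515 in OE. The part of fat body amount in the members' differences was not tested.

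Enzymes of carbohydrate and lipid metabolism made up 9 members, with median differences of 0.76 and -0.53. The alpha-glucosidase gene tobi, a target of insulin-like peptides from the brain, was at 9.20 to 385 (median 31.8) in conOE and 1366 to 4741 (median 2294) in OE. It was at 93.8 to 681 (median 204) in conRNAi and 22.4 to 272 (median 125) in RNAi. The first pair of groups did not overlap and the second did; the differences were 6.03 (SE 0.4), or 6.33 without the conOE library of course 1 at ZT7, and -1.15 (SE 0.32). The adjacent gene rha, given no role, was at 2.09 to 171 (median 16.7) in conOE and 374 to 1340.1 (median 849) in OE and differed by 5.67 (SE 0.45) and -0.64 (SE 0.36). The amylase gene Amy-p differed by 4.19 (SE 0.34) and -0.41 (SE 0.25), with limma SEs of 0.30 and 0.20. Its near-identical copy Amy-d was higher in OE by 3.52 (limma SE 0.25, adjusted p = 8.65e-12). In the RNAi experiment Amy-d differed by -0.00 (limma SE 0.13, adjusted p = 0.988). Reads of these copies may not be separable.

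Acat1, an acetyl-CoA acetyltransferase gene, was at 278 to 506 (median 374) in conOE and 511 to 991 (median 590.1) in OE, and at 461 to 724 (median 559.5) in conRNAi and 233 to 404 (median 334) in RNAi. Neither pair of groups overlapped. The fatty acid synthase gene FASN1 was at 1132 to 2161 (median 1603) in conOE and 2226 to 2996 (median 2672) in OE, without overlap, while 1174 to 2048 (median 1782) in conRNAi and 839 to 2269.7 (median 1408) in RNAi overlapped widely. The galactokinase gene Galk, the phosphoglucomutase gene Pgm1 and the lysosomal mannosidase gene LManII had overexpression differences of 0.53, 0.61 and 0.78 and RNAi differences of -0.56, -0.47 and -0.59; Pgm1 had nearly the same values as its overlapping neighbour Strump, so they cannot be told apart. The trehalase gene Treh, outside the members, was lower in OE and higher in RNAi, with differences of -0.62 (SE 0.093, adjusted p = 5.56e-06) and 0.40 (SE 0.05, adjusted p = 2.31e-08).

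Peptidases made up 11 members, among them 7 of the neprilysin family of metallopeptidases, 3 cathepsin genes and Ance-5, related to angiotensin-converting enzyme; their median differences were 1.17 and -0.70. CtsL3, a cathepsin L gene, was at 29.5 to 111 (median 58.8) in conOE and 119 to 307 (median 232) in OE. It was at 59.8 to 116 (median 78.7) in conRNAi and 11.3 to 44.9 (median 23.7) in RNAi, and both pairs of groups were apart. Its differences were 1.90 (SE 0.24) and -1.68 (SE 0.13). Nepl12 differed by 1.83 (SE 0.28) and -1.27 (SE 0.17), with RNAi values of 10.2 to 44.2 (median 27.4) against 32.2 to 103 (median 66.1) in conRNAi. Nepl18 differed by 1.99 and -0.63, CtsK1 by 1.55 and -0.70, and CtsK2 by 0.77 and -0.86.

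Of the 213 members, 8 had groups that did not overlap in either experiment: CtsL3, CG4408, CG11841, CG15293, CG11842, CG1468, CG33307 and Acat1. Over all genes this held for 0.129%, and the contrast chose the members, so nothing is read from the count. CG4408 was at 46.0 to 131 (median 102) in conOE, 239 to 690.5 (median 353) in OE, 116 to 241 (median 154) in conRNAi and 39.7 to 113 (median 71.8) in RNAi. The neighbours CG11841 and CG11842 had differences of 1.72 (SE 0.094) and 0.92 (SE 0.1) in the overexpression experiment. In the RNAi experiment they differed by -1.05 (SE 0.077) and -1.34 (SE 0.098), with 148 to 262 in RNAi against 321 to 531 in conRNAi for the former. CG15293 and CG1468 shared an RNAi difference of -0.59 and -0.59 and differed by 1.78 and 1.25 in the overexpression experiment, and CG33307 differed by 0.87 and -0.89. Another member without overlap in the RNAi experiment was CG18249, at 66.3 to 133 (median 89.0) in conRNAi and 2.49 to 40.3 (median 16.5) in RNAi; its differences were 1.09 (SE 0.19) and -2.46 (SE 0.19), and its OE libraries overlapped conOE.

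**Figure D3:**
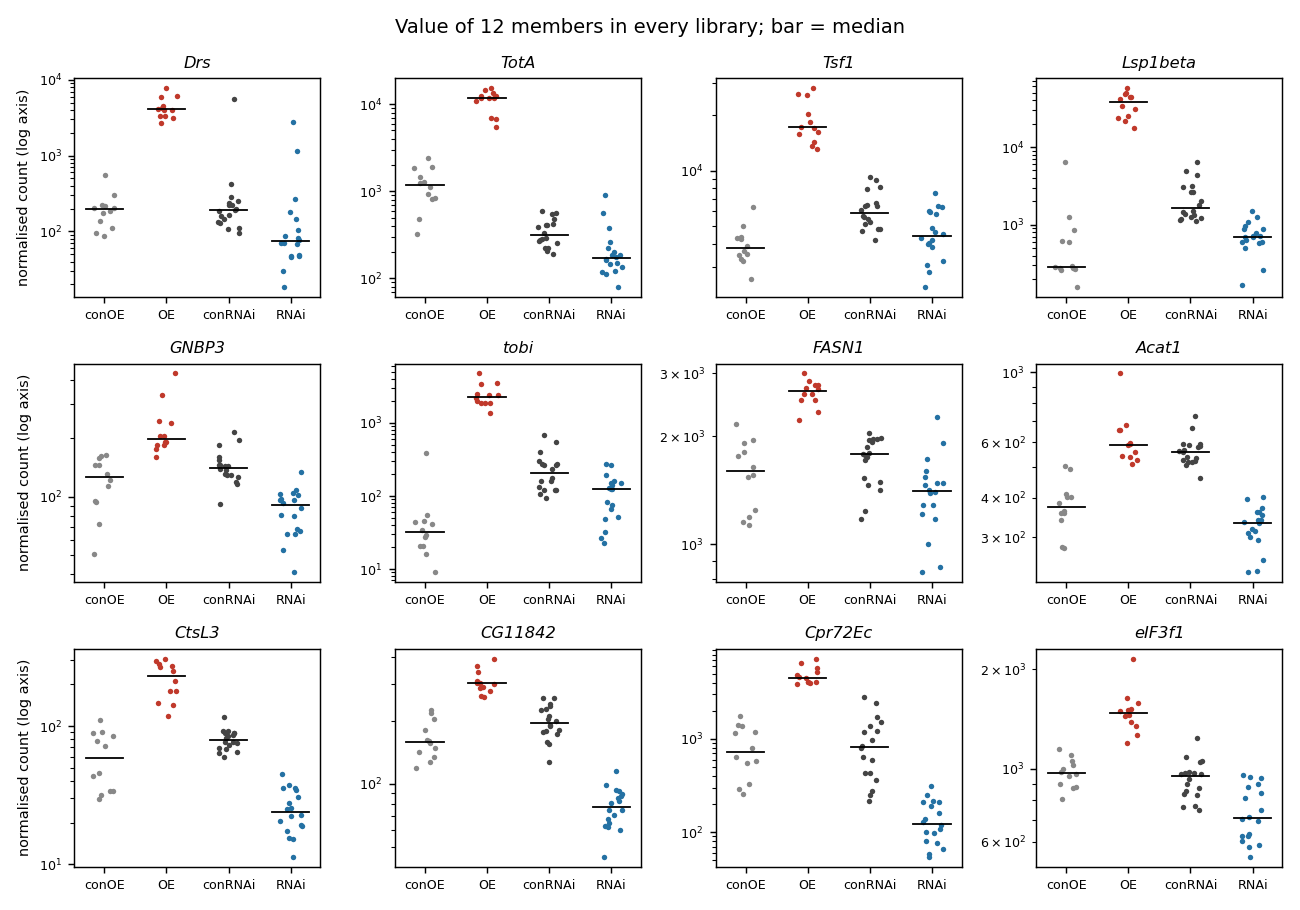
Deposited normalised count (vertical log axis) of 12 members in every library of the 4 genotypes (horizontal axis); a point is 1 library and a bar the median of 12 (conOE, OE) or 18 (conRNAi, RNAi) libraries. For Acat1, CtsL3 and CG11842 both pairs of groups are apart, whereas Drs, TotA, tobi and eIF3f1 overlap between conRNAi and RNAi.

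Cuticle and chitin genes made up 7 members, with median differences of 1.22 and -0.74. Cpr72Ec, a cuticular protein gene, had the lowest RNAi difference of all members. It was at 257 to 1744 (median 723) in conOE and 3841 to 7271 (median 4554) in OE, without overlap. It was at 218 to 2818 (median 819) in conRNAi and 54.3 to 315 (median 123) in RNAi, where the ranges overlapped; the differences were 2.74 (SE 0.29) and -2.60 (SE 0.32). The adjacent gene CG4842 was also a member, at 0.71 (SE 0.17) and -1.04 (SE 0.17). The chitin deacetylase gene serp differed by 1.94 and -0.85, the chitin-binding protein gene Gasp by 1.12 and -0.47, and the adult cuticle protein gene Acp1 by 1.15 and -0.80. Of 5 other epidermis and cuticle markers measured in the overexpression experiment 2 were lower and none higher in OE, and of 6 in the RNAi experiment 3 were lower and none higher in RNAi.

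Enzymes of amino acid, one-carbon and nucleotide metabolism made up 8 members, with median differences of 0.83 and -0.51. Gnmt, the glycine N-methyltransferase that consumes S-adenosylmethionine, was at 151 to 522 (median 387) in conOE and 908 to 1828 (median 1498) in OE, without overlap, and at 496 to 1430.2 (median 1017) in conRNAi and 323 to 1213 (median 724) in RNAi, with overlap. The folate enzyme gene pug differed by 1.01 and -0.68, and Prat2, which starts purine synthesis, by 0.84 and -0.64. Translation genes had the smallest differences of the role groups, with medians of 0.61 and -0.38 over 7 members outside the left-out ribosomal protein families. Among them eIF3f1, an initiation factor subunit, was at 805 to 1149 (median 971) in conOE and 1193 to 2157 (median 1471) in OE, without overlap, and at 749.8 to 1241 (median 947) in conRNAi and 539 to 954 (median 709) in RNAi, with overlap. The elongation factor gene eEF1beta differed by 0.61 and -0.53.

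Among the members, the heat shock genes Hsp22 and Hsp70Aa were present at low values. Hsp22, a mitochondrial small heat shock protein gene, differed by 1.32 (SE 0.34) and -0.49 (SE 0.26), but the tables list the same values for the overlapping gene CG4456, so they cannot be told apart. Hsp70Aa, at 2.45 to 13.9 in conOE and 8.77 to 53.9 in OE, has near-identical copies and is uncertain for that reason. Lon, a mitochondrial protease gene among the members, differed by 0.74 and -0.68. Outside the members, 3 of 9 stress and chaperone genes were higher and 2 lower in OE (limma adjusted p under 0.05). The co-chaperone gene DnaJ-1 was lower, by -0.52 (SE 0.066, adjusted p = 4.25e-07), and Hsp27 higher, by 1.58 (SE 0.26, adjusted p = 2.43e-05). In RNAi 2 of 10 were lower and none higher. These were the catalase gene Cat, at -0.49 (SE 0.075, adjusted p = 1.78e-06), and Hsp68, at -0.56 (SE 0.15, adjusted p = 0.00544). The Hsp68 call was lost without conRNAi course 1 (adjusted p = 0.0816) and without ZT19 (adjusted p = 0.0534).

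A role could be given to 79 members, by an assignment made after the values were seen, and 93 members are known only by a CG number. Among the members of highest value in the controls without a role were CG17108, at 8012 to 29250.3 (median 21636) in conOE and 34214 to 94502 (median 54541) in OE, CG6503, with differences of 0.82 and -0.45, CG14629 (1.07 and -0.52), CG34166 (1.14 and -0.56) and the cystatin-like gene Cys (1.16 and -0.33). CG16772 and CG16965 were among the 15 members of largest summed difference, with 3.76 (SE 0.26) and 3.71 (SE 0.32) in the overexpression experiment and -0.55 (SE 0.18) and -1.22 (SE 0.22) in the RNAi experiment.

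**Figure D4:**
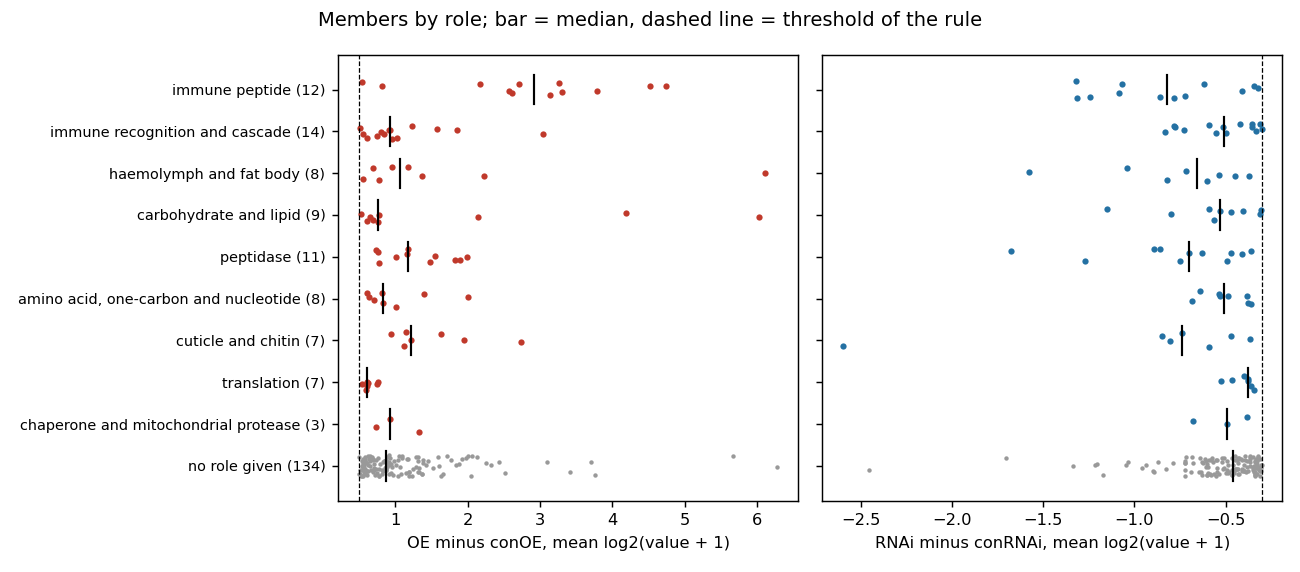
Difference of mean log2(value + 1) (horizontal axis) of the members of each role group (rows, number of members in brackets), OE minus conOE on the left and RNAi minus conRNAi on the right; a point is 1 gene, a bar the median and the dashed line the threshold of the rule. Immune peptides lie at a median of 2.92 on the left and -0.82 on the right, and translation genes at 0.61 and -0.38.

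The rule used only means over the whole day, not the daily course within a genotype. Members had a median control value of 158 in the overexpression and 169 in the RNAi experiment, beside 79.1 and 78.2 over all genes, and the part of level in the counts of rhythms was not tested. A 24 h rhythm (limma, cosine and sine terms, adjusted over all genes) was called in conRNAi for 30 of 213 members, or 14.1%, where 4.1% of all 7444 genes were called. In conOE it was called for 8 members, or 3.76%, with 1.2% of all 7648 genes called, and these 8 were all among the 30. The 30 peaked over the whole day in conRNAi, with 9 between ZT0 and ZT6, 4 between ZT6 and ZT12, 8 between ZT12 and ZT18 and 9 between ZT18 and ZT24. Of the 30, 24 had a fitted peak in conOE within 4 h of that in conRNAi. The nearness of peaks was not counted over all genes called in conRNAi, so it is not read as a trait of the members. The conRNAi count was 14 without course 1 and 15 without course 3, the conOE count 2 without course 1, 0 without course 2 and 5 without the course 1 library at ZT7, so the number of calls rests on single courses. Without the high conRNAi library, course 1 at ZT7, the conRNAi count was 23. By the authors' deposited q under 0.05, 56 of 213 members were called in conRNAi, where 12.6% of all genes were called. In conOE 22 of 213 members were called, where 7.53% of all genes were. The counts were 45 of 213 in RNAi, beside 11% of all genes, and 21 of 213 in OE, beside 7.01% of all genes.

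The 8 members called in both controls were CG4842, Cpr72Ec, CG17108, CG6409, CG10184, Gasp, FASN1 and dlp. CG4842 was highest late at night: in conRNAi its mean was 1039 at ZT23 (range 1025 to 1057) and 376 at ZT15 (range 284 to 449), and in conOE 840.2 at ZT23 (range 663 to 1017) and 357 at ZT15 (range 299 to 415). The fitted amplitude, from the daily mean to the peak on the log2 scale, was 0.72 in conRNAi (adjusted p = 2.95e-07) and 0.63 in conOE (adjusted p = 0.00209). The conOE call was lost without either course (adjusted p of 0.186 without course 1 and 0.214 without course 2). Cpr72Ec, beside it on chromosome arm 3L, peaked after lights on, with 2142 at ZT3 (range 1184 to 2818) and 357 at ZT15 (range 218 to 428) in conRNAi and 1567 at ZT3 (range 1389 to 1744) and 419 at ZT15 (range 257 to 582) in conOE. Its amplitudes were 1.34 (adjusted p = 2.4e-06) and 1.08 (adjusted p = 0.0168), and the conOE call was lost without course 2 (adjusted p = 0.443).

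Peaks of the other members called in both controls spread over the day. CG17108 peaked at ZT21.8 in conRNAi and ZT22.4 in conOE, and CG6409 at ZT19.2 and ZT18.7. FASN1 was higher by day, at 1937 at ZT3 (range 1789.9 to 2048) and 1276 at ZT23 (range 1174 to 1419) in conRNAi, with an amplitude of 0.24 (adjusted p = 0.0206). The glypican gene dlp, which shapes the spread of secreted signals, peaked at ZT10.8 in conRNAi and ZT11.2 in conOE. CG10184 and Gasp peaked between ZT4.19 and ZT5.89 in these controls. The conOE calls of these 6 members were lost without either course (adjusted p from 0.13 to 0.86), and CG10184, FASN1 and dlp also lost theirs without the course 1 library at ZT7 (adjusted p of 0.0757, 0.0763 and 0.0763). In conRNAi the calls of Gasp, FASN1 and dlp were lost without course 1 (adjusted p of 0.527, 0.271 and 0.0761) and without course 3 (adjusted p of 0.0877, 0.111 and 0.0845), and that of FASN1 also without course 2 (adjusted p = 0.0826). That of Gasp was lost without the conRNAi library of course 1 at ZT7 as well (adjusted p = 0.112).

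**Figure D5:**
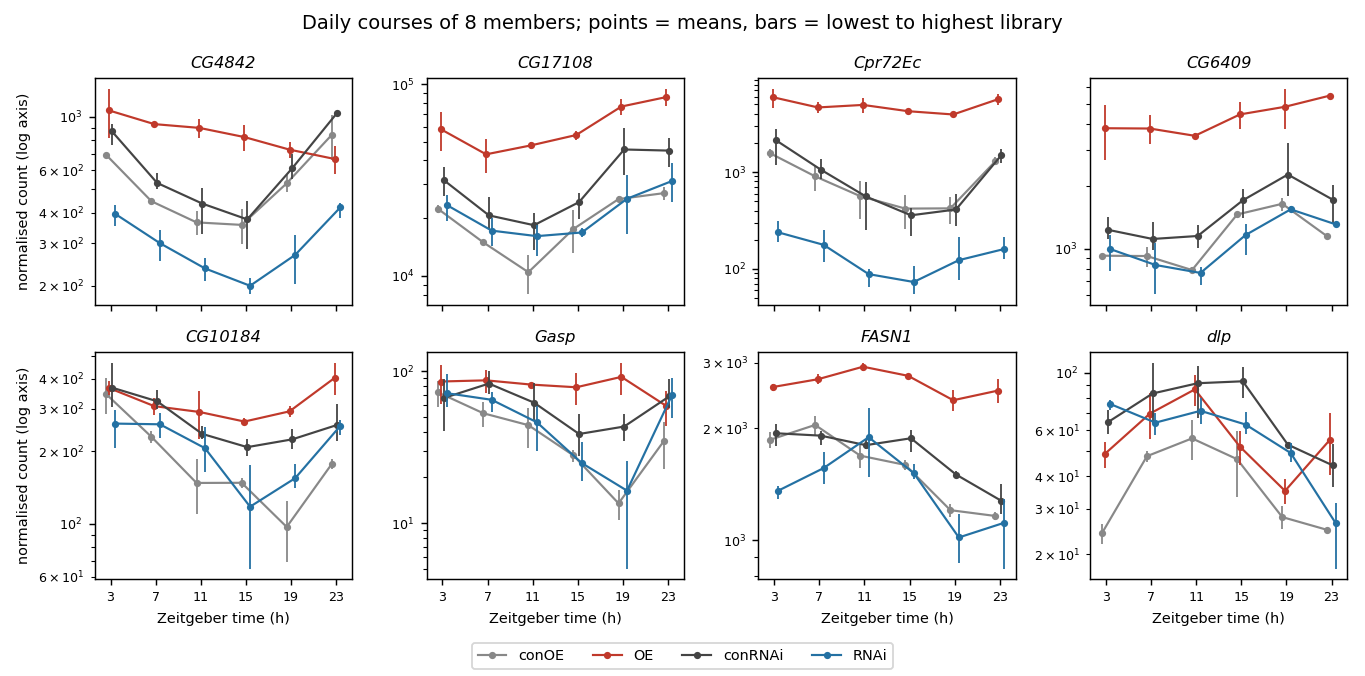
Deposited normalised count (vertical log axis) against Zeitgeber time (horizontal axis, h) for the 8 members called rhythmic in both controls; points are means and bars run from the lowest to the highest library of each genotype and time (2 libraries for conOE and OE, 3 for conRNAi and RNAi). CG4842 is high at ZT23 and low at ZT15 in both controls, and Cpr72Ec high at ZT3 and low at ZT15; no difference between the courses of labelled and control flies passed the test.

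Several members with large genotype differences were rhythmic in conRNAi but not called in conOE. Lsp1beta was higher at night, with 4165 at ZT15 (range 3197 to 4911) and 1259 at ZT7 (range 1105 to 1461) (adjusted p = 3e-05). The adjacent genes tobi and rha both rose to ZT15, to means of 419 and 156 from 111 and 32.1 at ZT3 (adjusted p = 0.00445 and 0.00231). In conOE these 3 genes were high in 1 library at ZT7, and the adjusted p-values were 0.846, 0.848 and 0.724. The call of tobi was lost without conRNAi course 1 (adjusted p = 0.135) and without course 3 (adjusted p = 0.0736), and that of rha without course 3 (adjusted p = 0.084). CG42367 was lowest at ZT11 and highest at ZT23 in conRNAi, at 11.8 and 79.0 (adjusted p = 8.98e-07), and the neprilysin-like gene Nepl18 was at 94.0 and 255 at the same times (adjusted p = 1.23e-06). Among the immune peptides Drsl5 was called, with 1398 at ZT15 and 805 at ZT23 (adjusted p = 0.000135), beside BaraA1 with an amplitude of 0.30 (adjusted p = 0.0445), a call lost without each of the 3 courses in turn (adjusted p from 0.058 to 0.516) and without the library of course 1 at ZT7 (adjusted p = 0.0866).

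In the libraries labelled RNAi a rhythm was called for 19 members, or 8.92%, with 2.18% of all genes called, and 16 of these were among the 30 of conRNAi; the count was 12 without RNAi course 1, 8 without course 3 and 33 by edgeR. Of the 30, 27 peaked in RNAi within 4 h of their conRNAi peak, which again was not counted over all genes. The lowest p was that of Swip-1, an EF-hand protein gene, at 44.8 to 75.9 in the ZT3 libraries and 12.6 to 15.3 in those of ZT15 (amplitude 1.02, adjusted p = 5.18e-05), beside an amplitude of 0.47 in conRNAi (adjusted p = 0.0466, 0.482 without conRNAi course 1, 0.121 without course 3 and 0.109 without the library of course 1 at ZT7). In RNAi, tobi was highest at ZT11, at 223, and lowest at ZT3, at 34.3 (adjusted p = 0.000894). In the libraries labelled OE 3 members, or 1.41%, were called, against 0.601% of all genes: CG42367 (23.3 at ZT7 and 164 at ZT19, adjusted p = 9.9e-05), Jhbp13 (1316 at ZT11 and 3307 at ZT23, adjusted p = 0.00334) and CG16772 (2129 at ZT3 and 4723 at ZT15, adjusted p = 0.0345). CG16772 lost its call without OE course 2 (adjusted p = 0.0727). The OE count was 28 without OE course 1 and 13 without course 2. Over the 30 conRNAi genes the median amplitude was 0.47 in conRNAi, 0.48 in conOE, 0.51 in RNAi and 0.28 in OE.

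No difference in the daily course between labelled and control flies passed the test. The genotype-by-time test called 0 members and 0 genes in both experiments by limma and by edgeR, with an unadjusted p under 0.05 for 9 members in the overexpression and 17 in the RNAi experiment, against 121 and 336 of all genes. The genotype-by-harmonic test likewise called 0 genes by limma in both experiments (0.0% of all genes; unadjusted p under 0.05 for 19 and 13 members, and for 312 and 313 genes), while edgeR called 1 gene, not a member, in the overexpression experiment and 0 in the RNAi experiment. Leaving out a single course changed these counts. Without OE course 1 the test by time called 14 genes and that by harmonic 2, none of them members. Without conOE course 2 the test by time called 6 genes, 4 of them members, and without conOE course 1 that by harmonic called 1 gene, a member. Without RNAi course 1 the test by time called 11 genes, 1 of them a member, and without the high library of each RNAi-experiment genotype it called 1 gene, a member. CG4842 had the lowest p: its mean was 1059 at ZT3 and 668 at ZT23 in OE, and 693 and 840.2 in conOE, with an unadjusted p of 3.05e-05 and an adjusted p of 0.19. For Cpr72Ec the OE amplitude was 0.22 beside 1.08 in conOE (adjusted p of the difference 0.999), and for Gasp 0.14 beside 0.96 (adjusted p 0.999). In the RNAi experiment the lowest values were those of Mtk (0.000628 unadjusted, 0.834 adjusted) and Gnmt (0.00162 and 0.834) by time, and of Swip-1 (0.00268 and 0.996) and tobi (0.0036 and 0.996) by harmonic.

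Once the mean of each genotype and time was taken away, members varied together only weakly. The median Pearson correlation between pairs of members was 0.17 over the 24 libraries of the overexpression experiment and 0.09 over the 36 of the RNAi experiment. All pairs of genes had medians of 0.00 in both. The points share libraries, and depth differs between them. In the overexpression experiment the 2 libraries of a genotype and time deviate as mirror images, so they are not separate points and the 24 overstate the number of points. Within role groups the medians of the RNAi experiment ran from 0.01 (haemolymph and fat body) to 0.45 (translation), with 0.28 for the immune peptides and 0.32 for the peptidases. In the overexpression experiment they ran from -0.15 (the 3 chaperone and protease genes) to 0.55 (cuticle and chitin). The genes outside the members whose deviations followed the member mean most closely in the RNAi experiment were Eglp4 (r = 0.82), CG8860 (0.76), Shmt (0.75), RpL11 (0.74) and RpS13 (0.73), over 36 libraries. In the overexpression experiment they were glob1 (0.94), RpL4 (0.90), SLIRP2 (0.89), RpL11 (0.88) and eEF1gamma (0.88), over the 24 mirrored libraries.

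Some members lie side by side. In the order of genes measured in both tables, 54 members stood in 25 runs of adjacent members, and the longest run held 4 genes on arm 2L, CG16704, CG3513, CG16713 and IM33. Other runs were Gbp1, Gbp2 and CG11400, TotA and TotC, Drsl4 and Drsl5, NimB2 and NimB3, CG11841 and CG11842, tobi and rha, and Cpr72Ec and CG4842. Of the members, 29.6% were on arm 3R, where 24.3% of all genes lie, and 11.3% on the X, which holds 17.1% of all genes. Reads of overlapping neighbours could be shared: CG14630 and Rpp21, like Hsp22 and CG4456, have identical values, so these pairs count as members together.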

How the data were processed

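Heads of 4 genotypes were profiled by poly(A)-selected 3′ RNA-seq at 6 times, giving 60 libraries. The submitters' processing notes name Bowtie, TopHat and the genome build dm3; for versions, counter, annotation and filters the sources used here give nothing. The deposited tables hold a normalised signal per transcript and library: nearly all values are whole multiples of the value of 1 read (tolerance 0.05 reads; 1 value in each table was not), so that the deposited values read as counts divided by a size factor. They were planned as counts and tested as normalised values instead. The same tables hold the authors' deposited p-values and q-values of their rhythm test, of which only q-values are used.

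For each gene the transcript of highest mean was kept (7648 and 7444 genes). Names came from RefSeq by locus tag for 7378 and 7186 genes and by synonym for 262 and 252. Differences are of log2(value + 1), with no filter. limma-trend (limma 3.58.1, R 4.3.3) was fitted to each table. The genotype difference came from a model with time as a factor and a single genotype term. This model also gave the SEs of cbt and of genes outside the members. Unless marked as limma's, SEs of members come from the spread of log2 values within the 2 groups, without time, so the 2 kinds of SE are unlike. The genotype-by-time test used a mean for every genotype and time. The rhythm and genotype-by-harmonic tests used 24 h cosine and sine terms. All p-values were adjusted by Benjamini-Hochberg over all genes of a table. edgeR 4.0.16 was run on the recovered reads as an alternative and called 3474 and 1913 genes for genotype, where limma called 3155 and 1664. Scripts were tested on simulated data; tables and figures used pandas 2.3.3, numpy 2.4.6 and matplotlib 3.10.9 (Python 3.11.15).

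The members, gene lists and role groups were chosen with earlier results of these data known, and the roles after the values were seen. Named members are the 15 of largest summed difference, the 10 of highest control value, members on a list, those of lowest p in a daily test, those without overlap in both experiments and those at the thresholds; a few others are named for their role or value, chosen after their values were seen, and members of low p in a daily test that are not described had no call beyond the counts given. Named genes outside the members are those of lowest p on the lists and those most like the member mean, with Tl added after its values were seen. None of 48 pairs of replicate libraries read as 1 library deposited again (chi-square divided by its degrees of freedom from 3.81 to 33.4). A search of promoters for motifs was not run, and no sequence is shown, because no sequence of the build was used here.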

Additional observations from a re-analysis of the deposited data

How the results depend on the processing

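The rule gave 213 members, 188 to 251 when 1 course was left out in turn and 130 with thresholds of 0.6 and -0.4; all settings run gave 130 to 251. AttB had a difference of 0.0206 in RNAi by edgeR, against -0.35; the other 2704 of 2705 differences of named members kept their direction. Leaving out 1 course gave 2204 to 2813 genotype calls in the overexpression and 1067 to 1899 in the RNAi experiment. It gave 0 to 14 genotype-by-time calls and 0 to 2 genotype-by-harmonic calls in the overexpression experiment, and 0 to 11 genotype-by-time calls in the RNAi experiment, where leaving out the 2 high libraries gave 1. edgeR gave 1 genotype-by-harmonic call in the overexpression experiment. Rhythms were called for 14 to 38 members in conRNAi, 8 to 17 in RNAi, 0 to 2 in conOE and 13 to 28 in OE when 1 course was left out. edgeR gave 33 in RNAi and 6 in OE, the libraries of at least 1000000 reads gave 5 in OE, and conOE gave 5 without its high library. Of 765 values of named rhythms, 93 lost their call. The cause of these changes was not tested. A course left out leaves 1 library per time in the overexpression experiment, assumed to vary like the others. The settings without single libraries, without a time at a time for the rule, with crossed numbers and with the deposited names were chosen after seeing the data. Reads limit low members such as Hsp70Aa and CG42367.

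Replicate numbers were not used in the main tests. Deviations of same-numbered libraries correlated at -0.26 to 0.20 in the overexpression and -0.08 to 0.21 in the RNAi experiment. In the RNAi experiment their median was 0.06, against -0.03 for libraries of unlike number. In the RNAi experiment 11 of 18 control libraries correlated best with their own number. In the overexpression experiment 6 of 12 did. There the 2 libraries of a genotype and time deviate as mirror images and always give the same answer, so the 12 are not separate observations. The main tests thus leave out a weak likeness by number in the RNAi experiment. With the replicate block, 3158 and 1821 genes were called for genotype, 0 by time and 0 by harmonic, and rhythms for 44 members in conRNAi, 27 in RNAi, 9 in conOE and 6 in OE. With crossed numbers 3257 genes were called for genotype and 1 by harmonic.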
